A study of Homo sapiens with 6 samples.

Results

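The proteasome is the large protease that takes apart proteins tagged with ubiquitin. Its 20S core is a barrel of stacked alpha and beta rings with the cutting sites on the inner beta subunits, and the 19S cap on its ends recognizes ubiquitin chains, removes them, unfolds the substrate with a ring of ATPases and feeds it into the barrel. Cells exposed to interferon-gamma replace the 3 constitutive cutting subunits with the immunoproteasome subunits PSMB8, PSMB9 and PSMB10, and PSME1 with PSME2 form another cap that opens the core, and both are known for the supply of peptides to class I molecules. The genes described here are the protein-coding rows of the expression table whose symbol starts with PSM, then a letter from A to G and a digit. They number 49 of 58735 genes in all, of which 19951 are protein coding. The count covers 14 constitutive core subunits, 17 subunits of the 19S cap, 3 immunoproteasome subunits, 2 tissue-restricted core subunits (PSMA8 of the testis and PSMB11 of the thymus), 4 activators, 1 inhibitor, 7 assembly chaperones and PSMC3IP, which bears the name of a partner gene and is a recombination factor, not a proteasome subunit.

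RNA-seq was performed on PC9-BrM3 in routine culture, a line with tropism for the brain that descends from PC9, a human lung adenocarcinoma line. In BrM3-shAKR1B10 (n = 3 libraries), AKR1B10, an aldo-keto reductase, was knocked down with a lentiviral shRNA (the LV2 vector). BrM3-shNC (n = 3 libraries) received negative control shRNA in the same vector and has WT as its genotype label. All libraries come from 1 cell line and 1 shRNA against AKR1B10, and since no label says whether the libraries of a group came from separate cultures, p-values measure only the spread between these libraries. The comparison asks how the RNA of the proteasome genes differed after AKR1B10 silencing.

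AKR1B10 stood at 108, 107 and 110.2 FPKM (reads per kilobase of gene, scaled to the depth of the library) in BrM3-shAKR1B10 and at 799, 775 and 772 FPKM in BrM3-shNC, a mean of 13.9% of control (log2 fold change −2.85 ± 0.03 SE, limma adjusted p = 1.6e-07). An exact two-sided permutation test of this gene gave p = 0.1, the smallest that 3 against 3 libraries can give. The libraries held 16964504 to 18709028 reads on genes, so 3 reads on a gene of 1 kilobase corresponded to 0.163 to 0.177 FPKM, counting error only. BrM3-shNC replicate 1 stood furthest from its group: its chi-square per gene against the other BrM3-shNC libraries was 4.88 and 5.42, while all other pairs of replicates lay between 2.45 and 2.70. The epithelial markers EPCAM, KRT8, KRT18, KRT19 and CDH1 summed to 2483–2783 FPKM per library. The lung lineage markers NKX2-1, SFTPB and NAPSA summed to no more than 0.927 FPKM, so the labelled lung origin is not visible in them. Of the other lists, 5 leukocyte markers summed to 1.16–1.19 FPKM in BrM3-shAKR1B10 against 1.32–1.64 FPKM in BrM3-shNC, 3 endothelial markers to 2.10–2.37 and 1.52–1.79 FPKM, and 4 fibroblast markers to 1.20–1.35 and 2.03–2.05 FPKM, with COL1A2 and DCN at 0 in all libraries. The part of these small sums in the results below was not tested.

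The promoters of 7 members are shown because their genes form the contrasts on which the results turn: the 3 immunoproteasome subunits, the paired activator subunits PSME1 and PSME2, and PSMC3 and PSMC4, a pair of ATPases of the same ring. The sequences are from RefSeq (GRCh38.p14), 250 bases before to 50 after the annotated start, 5′ to 3′ on the gene's strand. Capitals mark matches on either strand to TGACNNNGC (antioxidant response element core), GAAA, any 2 bases and GAAA (interferon-stimulated response element core), TTCNNNGAA (gamma-activated site) or CCAAT (NF-Y box). The windows are chr6:32843998-32844297 (minus strand) for PSMB8, chr6:32853942-32854241 (plus) for PSMB9, chr16:67936801-67937100 (minus) for PSMB10, chr14:24135944-24136243 (plus) for PSME1, chr14:24146561-24146860 (minus) for PSME2, chr11:47426390-47426689 (minus) for PSMC3 and chr19:39970915-39971214 (plus) for PSMC4.
PSMB8: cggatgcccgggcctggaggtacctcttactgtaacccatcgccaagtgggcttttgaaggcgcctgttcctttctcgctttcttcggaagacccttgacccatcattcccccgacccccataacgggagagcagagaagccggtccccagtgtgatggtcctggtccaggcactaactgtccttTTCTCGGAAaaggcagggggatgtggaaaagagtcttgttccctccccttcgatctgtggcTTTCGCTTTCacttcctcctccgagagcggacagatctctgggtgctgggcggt
PSMB9: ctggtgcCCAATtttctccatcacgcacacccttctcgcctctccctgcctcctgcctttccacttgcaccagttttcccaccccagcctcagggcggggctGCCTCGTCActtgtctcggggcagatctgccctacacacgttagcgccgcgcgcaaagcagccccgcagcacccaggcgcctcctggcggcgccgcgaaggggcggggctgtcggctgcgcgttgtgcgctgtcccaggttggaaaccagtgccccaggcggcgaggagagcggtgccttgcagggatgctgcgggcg
PSMB10: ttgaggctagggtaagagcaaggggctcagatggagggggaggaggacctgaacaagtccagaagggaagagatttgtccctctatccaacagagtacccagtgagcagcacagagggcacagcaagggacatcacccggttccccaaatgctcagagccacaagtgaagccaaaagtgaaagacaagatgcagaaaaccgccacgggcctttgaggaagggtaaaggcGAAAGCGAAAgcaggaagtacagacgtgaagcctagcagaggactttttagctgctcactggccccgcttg
PSME1: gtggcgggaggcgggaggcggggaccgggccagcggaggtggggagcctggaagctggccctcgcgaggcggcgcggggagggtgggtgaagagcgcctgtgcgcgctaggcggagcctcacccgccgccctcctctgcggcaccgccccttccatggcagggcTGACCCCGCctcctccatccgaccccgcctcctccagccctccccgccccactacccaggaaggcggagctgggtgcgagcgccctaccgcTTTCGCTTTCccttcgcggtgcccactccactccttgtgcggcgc
PSME2: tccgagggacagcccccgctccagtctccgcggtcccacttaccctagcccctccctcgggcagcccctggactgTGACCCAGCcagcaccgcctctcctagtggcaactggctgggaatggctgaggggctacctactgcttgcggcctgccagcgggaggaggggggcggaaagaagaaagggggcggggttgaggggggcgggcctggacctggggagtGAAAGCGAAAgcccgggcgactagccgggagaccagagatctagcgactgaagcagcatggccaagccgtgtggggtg
PSMC3: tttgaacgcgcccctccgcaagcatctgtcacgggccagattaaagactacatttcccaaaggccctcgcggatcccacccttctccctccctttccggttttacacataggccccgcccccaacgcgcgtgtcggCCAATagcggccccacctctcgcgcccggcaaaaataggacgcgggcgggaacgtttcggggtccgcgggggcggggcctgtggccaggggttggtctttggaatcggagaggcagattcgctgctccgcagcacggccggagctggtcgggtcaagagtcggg
PSMC4: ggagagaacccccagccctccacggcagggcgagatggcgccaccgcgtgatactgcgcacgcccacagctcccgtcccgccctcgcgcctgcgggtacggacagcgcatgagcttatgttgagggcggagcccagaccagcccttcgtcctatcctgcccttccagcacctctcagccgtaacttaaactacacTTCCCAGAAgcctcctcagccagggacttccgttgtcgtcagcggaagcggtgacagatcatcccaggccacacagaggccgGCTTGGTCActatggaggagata

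The interferon-stimulated letters occurred in PSMB8 (bases −4 to 6 around the start, which has no base 0), in PSMB10 (−21 to −12), in PSME1 (6 to 15) and in PSME2 (−28 to −19), and PSMB8 also held a gamma-activated match at −65 to −57. RefSeq gives PSMB8 a further promoter, chr6:32844630-32844929 (minus), and that window held none of the 4 motifs. In all 4 genes the interferon-stimulated match read GAAAGCGAAA, on the gene's own strand in PSMB10 and PSME2 and on the opposite strand in PSMB8 and PSME1. The PSMB9 window held neither of these motifs, but a TGACNNNGC match at −148 to −140 and CCAAT at −243 to −239. PSMC3 held 1 CCAAT at −114 to −110, and PSMC4 held TGACNNNGC at 28 to 36 and TTCNNNGAA at −55 to −47. RefSeq entries matched 43 of the 49 members, with 53 promoters. The interferon-stimulated motif occurred in 7 of these 53 promoters (13.2%) against 3.57% of all 35116 promoters, TGACNNNGC in 15 (28.3%) against 13.3%, TTCNNNGAA in 8 (15.1%) against 7.66% and CCAAT in 22 (41.5%) against 34.6%. By response, TGACNNNGC was found in 6 of 23 promoters of members that fell and in 8 of 25 promoters of tested members that did not pass. CCAAT was found in 10 of the same 23 and 10 of the same 25, TTCNNNGAA in 4 and 2, and the interferon-stimulated motif in 3 and 3. A match describes letters only, not a bound site.

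Silencing of AKR1B10 was accompanied by small, mostly downward shifts of proteasome RNA. Of the 49 members, 45 reached a mean of 1 FPKM and were tested, and 36 of these 45 had a log2 fold change below 0, against 51.6% of the 13150 genes tested. The median log2 fold change was −0.12 over the members tested and −0.01 over all genes tested. At the study's thresholds (adjusted p under 0.05 with a log2 fold change beyond 0.5), limma called 0 members lower, with 7.45% of all genes tested called lower, and 0 members higher, with 5.83% of all genes called higher. At an unadjusted p under 0.05, 0 members lay beyond 0.5, and limma's voom on the recovered reads also called 0. Whatever the fold change, 21 members (46.7%) fell past the adjusted p against 23.1% of all genes, and 1 member (2.22%), PSMB10, rose against 19.4% of all genes. The 2 groups did not overlap, with BrM3-shAKR1B10 lower, for 26 members (57.8%) against 29.2% of all genes. With BrM3-shAKR1B10 higher they did not overlap for 2 members (4.44%), PSMB10 and PSMG2, against 25.5% of all genes. In bulk RNA a lower level in every cell and a level lost in some of the cells cannot be told apart.

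**Figure D1:**
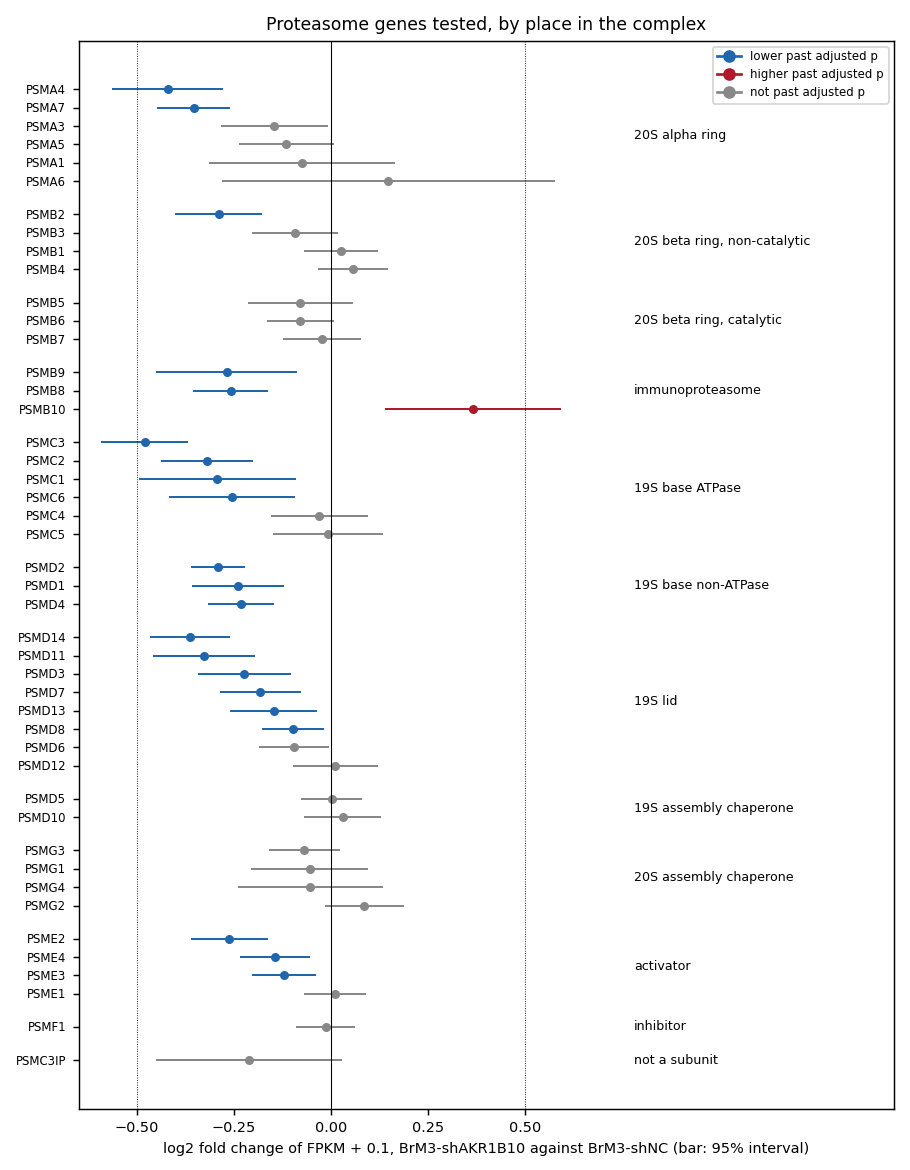
Log2 fold change of FPKM + 0.1 (horizontal axis) for the 45 members tested, BrM3-shAKR1B10 against BrM3-shNC, with 95% intervals as bars, sorted within each group. Blue members fell and red rose past an adjusted p of 0.05, grey ones did not pass, and the dotted lines mark 0.5 in each direction, which no point crosses: the values run from −0.48 (PSMC3) to 0.37 (PSMB10).

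The 19S cap held most of the members that fell. Past the adjusted p, 13 of its 17 subunits fell and 0 rose, with a median log2 fold change of −0.23, against 23.1% of all genes tested lower and 19.4% higher. Of the 13 tested subunits of the constitutive 20S core 3 fell (23.1%, the share of all genes) and 0 rose, with a median of −0.08. Summed over its subunits, the cap stood at 530.1, 534 and 541 FPKM in BrM3-shAKR1B10 and at 630.3, 630.2 and 637 FPKM in BrM3-shNC (84.6% of control). The core stood at 759, 751 and 752 FPKM against 823, 833 and 811 FPKM (91.7% of control). The ratio of the cap's sum to the core's sum was 0.709 ± 0.0104 (SD, n = 3) in BrM3-shAKR1B10 and 0.769 ± 0.0147 in BrM3-shNC, and the groups did not overlap. A few abundant genes weigh on these sums. PSMA7 alone made up 52.9% of the core's difference of 68.1 FPKM, and PSMC3 and PSMD2 made up 28.2% and 22.0% of the cap's difference of 97.6 FPKM. Without PSMA7 the core stood at 95.1% of control, and without PSMC3 and PSMD2 the cap stood at 88.4%. These sums describe RNA, not assembled particles, and no test was made on them or on the difference between cap and core.

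**Figure D2:**
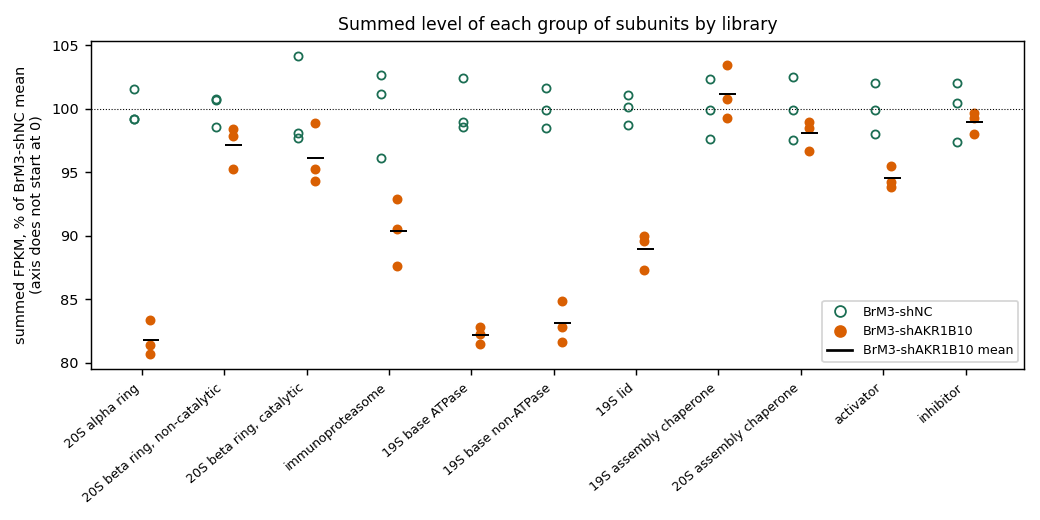
Summed FPKM of each group of subunits in each library, as percent of the BrM3-shNC mean of that group (open circles BrM3-shNC, filled circles BrM3-shAKR1B10, line at the BrM3-shAKR1B10 mean). The alpha ring and both parts of the 19S base lie at 81.8–83.1% with no overlap between the groups, while the assembly chaperones and the inhibitor lie at 98.1–101%.

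Within the 19S base, the ATPases form the ring that unfolds substrates, and 4 of 6 fell, against 23.1% of all genes tested. The sum of the ATPases was 82.2% of control, and 89.8% without PSMC3. PSMC3 (chromosome 11, 47418769 to 47426473, minus strand, GRCh38) stood at 69.3, 68.6 and 70.3 FPKM in BrM3-shAKR1B10 and at 91.5, 96.7 and 103 FPKM in BrM3-shNC. All 3 knockdown libraries lay under the lowest control library, and PSMC3 had the lowest log2 fold change of all members, −0.48 ± 0.05 (SE, adjusted p = 0.00036). Without BrM3-shNC replicate 1, its log2 fold change was −0.52, which would make it the 1 member called at the study's thresholds. PSMC2 fell from a mean of 45.5 FPKM to 80.0% of it (log2 fold change −0.32, adjusted p = 0.0025). PSMC1 was the least abundant ATPase, at 3.70, 4.62 and 4.30 FPKM against 5.27, 5.14 and 5.06 FPKM (log2 fold change −0.29, adjusted p = 0.0298). PSMC6 fell as well (log2 fold change −0.26, adjusted p = 0.0216), and the groups overlapped for neither gene. The call of PSMC1 was lost without BrM3-shAKR1B10 replicate 3 (adjusted p = 0.0612) and without any 1 of the BrM3-shNC libraries (adjusted p = 0.0629 to 0.0772), and that of PSMC6 without BrM3-shAKR1B10 replicate 1 (adjusted p = 0.0617) or replicate 3 (adjusted p = 0.0661).

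The other pair of ATPases did not pass. PSMC4 stood at 50.5, 45.9 and 45.9 FPKM in BrM3-shAKR1B10 against 46.3, 50.1 and 49.0 FPKM in BrM3-shNC, and the log2 fold change of −0.03 had a 95% interval from −0.15 to 0.09. PSMC5 stood at 20.5, 19.8 and 21.0 FPKM against 20, 19.4 and 22.3 FPKM, and its log2 fold change of −0.01 had an interval from −0.15 to 0.13. The groups overlapped for both genes, and the sign of both log2 fold changes turned with TPM scaling and with quantile normalization. The ratio of PSMC3 to PSMC4 was 1.37, 1.5 and 1.53 in BrM3-shAKR1B10 and 1.97, 1.93 and 2.10 in BrM3-shNC. Its size depends on the annotated lengths of both genes, and it describes RNA, not subunits in the particle.

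All 3 non-ATPase subunits of the base fell, against 23.1% of all genes tested. PSMD2, a scaffold that binds ubiquitin-like domains, was the most abundant subunit of the cap, at 95.3, 95.2 and 98.4 FPKM in BrM3-shAKR1B10 against 118, 118 and 117 FPKM in BrM3-shNC. The spread within each group was small beside this gap, and the log2 fold change was −0.29 ± 0.03 (SE, adjusted p = 0.00039). PSMD4, a ubiquitin receptor, stood at 44.7, 45.5 and 46.5 FPKM against 54.3, 54.5 and 51.7 FPKM (log2 fold change −0.23, adjusted p = 0.0023). PSMD1, the scaffold that holds a further ubiquitin receptor, stood at 30.0, 31.6 and 31.8 FPKM against 39.0, 35.2 and 36.2 FPKM (log2 fold change −0.24, adjusted p = 0.0083). None of the 3 genes had overlapping groups, and the call of PSMD1 was lost with quantile normalization (adjusted p = 0.0560).

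In the lid, which carries the enzyme that cuts ubiquitin chains off, 6 of 8 subunits fell, against 23.1% of all genes tested. PSMD14, that deubiquitinating enzyme, had the lowest log2 fold change of the lid, and stood at 10.1, 10.4 and 10.2 FPKM in BrM3-shAKR1B10 against 13.5, 13.7 and 12.7 FPKM in BrM3-shNC (log2 fold change −0.36 ± 0.04 SE, adjusted p = 0.00079). PSMD11, a structural subunit of the lid, followed at −0.33 (adjusted p = 0.0035), then PSMD3 at −0.22 (adjusted p = 0.0113) and PSMD7, the partner of PSMD14, at −0.18 (adjusted p = 0.0136). The call of PSMD7 was lost with TPM scaling (adjusted p = 0.0558) and with quantile normalization (adjusted p = 0.0925). PSMD13 (log2 fold change −0.15, adjusted p = 0.0385) and PSMD8 (−0.10, adjusted p = 0.0477) passed by little. PSMD13 lost the call without any 1 library other than BrM3-shAKR1B10 replicate 3 (adjusted p = 0.0665 to 0.0955), and PSMD8 without any 1 library other than BrM3-shNC replicate 1 (adjusted p = 0.0824 to 0.142).

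PSMD8 was also the most abundant subunit of the lid, at 50.1, 51.4 and 51.9 FPKM against 53.2, 55.4 and 55.6 FPKM. PSMD6 had the lowest FPKM over all exon bases, at 6.97, 6.82 and 6.95 FPKM in BrM3-shAKR1B10 against 7.42, 7.32 and 7.45 FPKM in BrM3-shNC. It was not the lowest per base of the principal transcript (the main coding transcript in GENCODE), with a control mean of 47.2 FPKM on that scale against 14.9 FPKM for PSMD12. Its groups did not overlap, but its log2 fold change of −0.10 did not pass (adjusted p = 0.0772). PSMD12 lay at the other end of the lid, with 12.0, 12.9 and 12.1 FPKM against 12.6, 12.3 and 11.8 FPKM and a log2 fold change of 0.01 (95% interval −0.10 to 0.12).

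**Figure D3:**
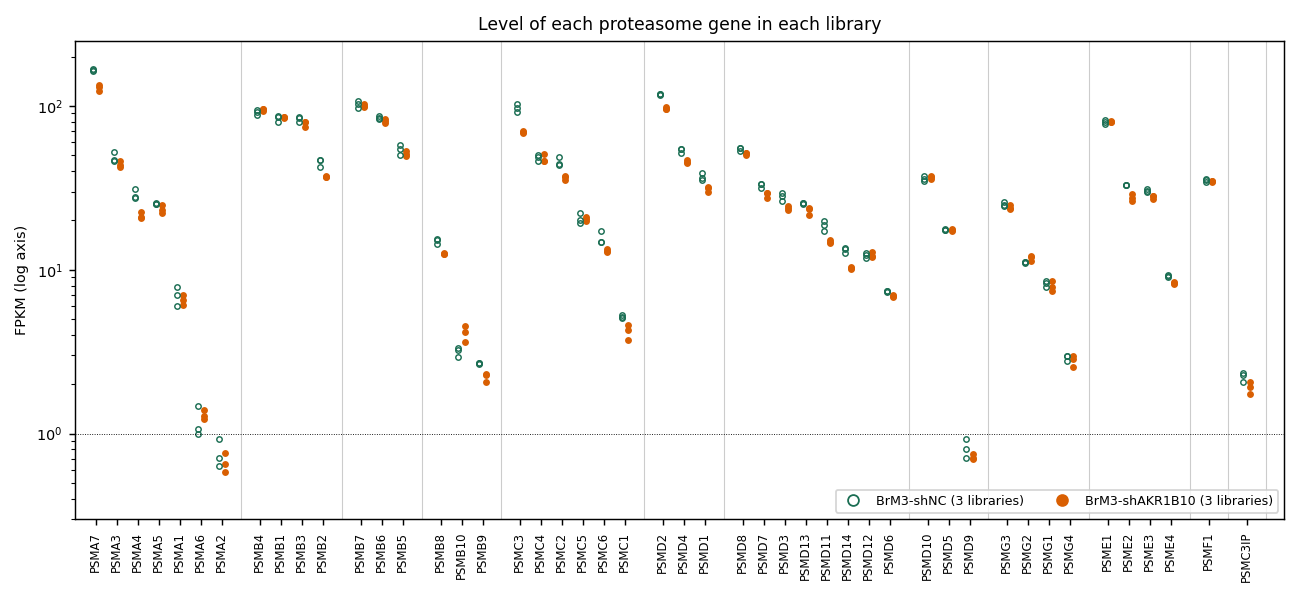
FPKM (log axis) of the 47 members with reads, in each of the 3 BrM3-shNC libraries (open circles) and the 3 BrM3-shAKR1B10 libraries (filled circles), grouped by place in the complex and sorted by control level. The dotted line marks 1 FPKM, which PSMA2 and PSMD9 did not reach on average, and PSMA7 stood highest at a control mean of 165 FPKM.

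Within the 20S core, the alpha ring, which forms the gate of the barrel, summed to 81.8% of control (87.2% without PSMA7), and the constitutive beta ring to 96.7%. The ratio of alpha to beta sums was 0.429 ± 0.00662 (SD, n = 3) in BrM3-shAKR1B10 and 0.508 ± 0.0138 in BrM3-shNC. PSMA7, the most abundant member of all, stood at 134, 123 and 131 FPKM in BrM3-shAKR1B10 and at 163, 166 and 167 FPKM in BrM3-shNC (log2 fold change −0.35 ± 0.04 SE, adjusted p = 0.00058). PSMA4 stood at 20.7, 22.6 and 21.0 FPKM against 30.9, 27.9 and 27.4 FPKM, with the lowest log2 fold change of the core (−0.42 ± 0.06 SE, adjusted p = 0.0018). Both genes had every knockdown library under every control library. The 4 other alpha subunits tested did not pass, although the groups did not overlap for PSMA3 (log2 fold change −0.15, adjusted p = 0.0786) and PSMA5 (−0.12, adjusted p = 0.106).

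Of the 4 beta subunits without a cutting site, PSMB2 was the one that fell, from 46.7, 47.0 and 42.4 FPKM in BrM3-shNC to 37.2, 37.0 and 37.0 FPKM in BrM3-shAKR1B10 (log2 fold change −0.29 ± 0.05 SE, adjusted p = 0.003). It was also the least abundant of the 4. PSMB4, the most abundant, stood at 92.6, 95.9 and 96.2 FPKM against 87.9, 94.3 and 92.0 FPKM, with overlapping groups and a log2 fold change of 0.06 (95% interval −0.03 to 0.14). PSMB1 (log2 fold change 0.03) and PSMB3 (−0.09) did not pass either.

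The 3 constitutive cutting subunits did not pass. PSMB5, which carries the chymotrypsin-like site and is the main target of bortezomib, stood at 53.1, 49.2 and 51.1 FPKM in BrM3-shAKR1B10 and at 50.4, 57.5 and 54.4 FPKM in BrM3-shNC. PSMB6, with the caspase-like site, stood at 82.9, 80.6 and 78.2 FPKM against 83.2, 87.1 and 84.9 FPKM, and PSMB7, with the trypsin-like site, at 103, 100.3 and 98.5 FPKM against 102, 107 and 97.7 FPKM. The groups overlapped for PSMB5 and PSMB7 and, by a narrow margin, not for PSMB6. Their log2 fold changes were −0.08 (95% interval −0.21 to 0.05) for PSMB5, −0.08 (−0.16 to 0.00) for PSMB6 and −0.02 (−0.12 to 0.07) for PSMB7, so decreases of the size seen for PSMC3 or PSMA4 lay outside each interval. The sign for PSMB7 turned with TPM scaling and with quantile normalization.

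Of the immunoproteasome subunits, PSMB8 and PSMB9 fell and PSMB10 rose. PSMB8, the counterpart of PSMB5, lies on chromosome 6 from 32840717 to 32844703 and stood at 12.6, 12.4 and 12.6 FPKM in BrM3-shAKR1B10 against 14.4, 15.5 and 15.1 FPKM in BrM3-shNC (log2 fold change −0.26 ± 0.04 SE, adjusted p = 0.0025). PSMB9, the counterpart of PSMB6, lies beside it on the opposite strand from 32844136 to 32859585 and stood at 2.30, 2.29 and 2.06 FPKM against 2.71, 2.69 and 2.66 FPKM (log2 fold change −0.27 ± 0.07 SE, adjusted p = 0.0270). Every knockdown library lay under every control library for both. PSMB10, the counterpart of PSMB7 on chromosome 16 from 67934502 to 67937087, stood at 4.52, 4.18 and 3.62 FPKM against 2.94, 3.22 and 3.31 FPKM, or 130.1% of control. Its groups did not overlap, and the log2 fold change was 0.37 ± 0.09 (SE, adjusted p = 0.0207).

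PSMB9 and PSMB10 rest on few reads, at least 112 and at least 100 per library, and both calls depended on single libraries. The call of PSMB9 was lost without BrM3-shAKR1B10 replicate 3 (adjusted p = 0.0695) and without any 1 of the BrM3-shNC libraries (adjusted p = 0.0645 to 0.0724). The call of PSMB10 was lost without BrM3-shAKR1B10 replicate 1 (adjusted p = 0.0607), without BrM3-shAKR1B10 replicate 2 (adjusted p = 0.0627) and without BrM3-shNC replicate 1 (adjusted p = 0.0585). PSMB8, with at least 665 reads per library, kept an adjusted p under 0.05 in all 15 alternatives. Of the coding bases of PSMB10, 60.0% lie in exons of the overlapping gene AC040162.1 on the same strand, which had 20, 29 and 27 reads in BrM3-shAKR1B10 and 13, 17 and 20 reads in BrM3-shNC. PSMB8 and PSMB9 share 139 exonic bases on opposite strands, and the lincRNA PSMB8-AS1, which overlaps both, had 10 to 29 reads per library. Whether counting used the strand is not given in the sources used here, and the part of these overlaps in the levels was not tested.

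Each immunoproteasome subunit stood below its constitutive counterpart. PSMB8 made up 19.7% ± 0.525 (SD, n = 3) of the FPKM of PSMB8 and PSMB5 together in BrM3-shAKR1B10 and 21.7% ± 0.486 in BrM3-shNC. PSMB9 made up 2.68% ± 0.103 of PSMB9 and PSMB6 against 3.06% ± 0.0828. PSMB10 made up 3.92% ± 0.339 of PSMB10 and PSMB7 against 3.0% ± 0.251. In each pair the libraries of the 2 groups did not overlap. FPKM divides by all exon bases of a gene, so shares between genes depend on the annotated lengths. With the length of the principal transcript instead, a choice made after seeing the data, the share of PSMB8 was 32.4% against 35.2%, that of PSMB9 5.98% against 6.81% and that of PSMB10 3.29% against 2.52%, again without overlap.

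**Figure D4:**
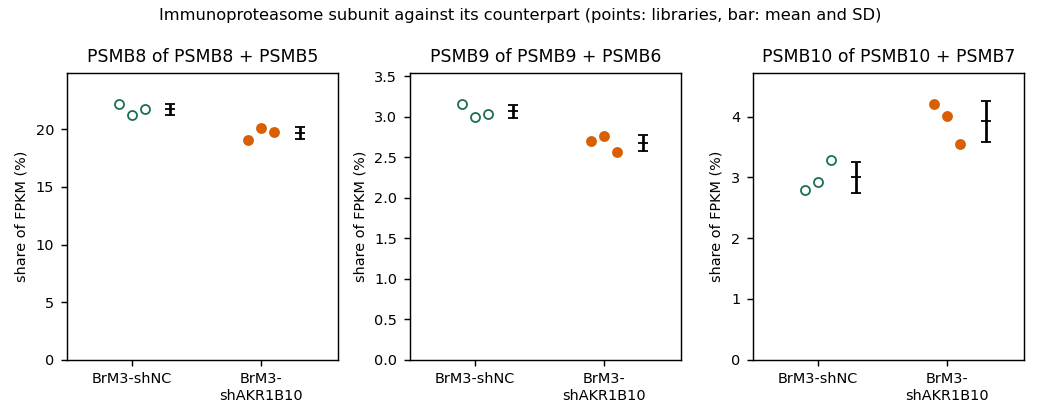
Share of each immunoproteasome subunit in the summed FPKM of itself and its constitutive counterpart (vertical axis, percent, from 0), with a point per library and the mean with SD as bars. The shares of PSMB8 and PSMB9 are lower and that of PSMB10 is higher in the 3 BrM3-shAKR1B10 libraries than in the 3 BrM3-shNC libraries.

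Among the activators, which open the core without ATP-driven unfolding, 3 of 4 fell. Of all genes tested, 23.1% were lower and 19.4% higher, and with 4 genes nothing particular to the activators is read from this count. PSME1 and PSME2 assemble into a joint ring. PSME1 stood at 81.1, 79.7 and 80.2 FPKM in BrM3-shAKR1B10 against 82.2, 77.5 and 79.8 FPKM in BrM3-shNC (log2 fold change 0.01, 95% interval −0.07 to 0.09). PSME2 stood at 28.8, 27.2 and 26.3 FPKM against 33.0, 33.0 and 32.8 FPKM, without overlap (log2 fold change −0.26 ± 0.04 SE, adjusted p = 0.0027). Their ratio was 2.82, 2.93 and 3.05 in BrM3-shAKR1B10 and 2.49, 2.35 and 2.44 in BrM3-shNC. As printed above, both promoters hold the same interferon-stimulated letters and a TGACNNNGC match.

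PSME3, which forms the nuclear activator ring, stood at 27.1, 28.4 and 28.1 FPKM against 30.9, 29.7 and 30.3 FPKM (log2 fold change −0.12, adjusted p = 0.0263). PSME4, the large single-chain activator, stood at 8.42, 8.19 and 8.29 FPKM against 9.19, 9.02 and 9.34 FPKM (log2 fold change −0.14, adjusted p = 0.0188). Both had groups without overlap at differences under 10% of control. PSME3 lost the call without BrM3-shAKR1B10 replicate 1 or 3 and without BrM3-shNC replicate 1 or 3 (adjusted p = 0.0584 to 0.0858), and PSME4 without BrM3-shAKR1B10 replicate 2 or 3 and without BrM3-shNC replicate 3 (adjusted p = 0.0534 to 0.0613). The inhibitor PSMF1 stood at 34.5, 35.0 and 34.9 FPKM against 35.3, 34.3 and 35.9 FPKM, with a log2 fold change of −0.01 (95% interval −0.09 to 0.06) that turned sign with the same 2 scalings.

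None of the assembly chaperones tested passed. PSMD10 and PSMD5, which guide the 19S base, stood at 35.7, 36.9 and 37.6 FPKM and at 17.5, 17.1 and 17.8 FPKM in BrM3-shAKR1B10. In BrM3-shNC they stood at 37.5, 35.7 and 34.7 FPKM and at 17.4, 17.6 and 17.4 FPKM. Both overlapped, with log2 fold changes of 0.03 and 0.00. Of the 4 chaperones of the 20S core, PSMG3 stood at 23.9, 23.3 and 24.7 FPKM against 24.6, 25.0 and 25.9 FPKM and PSMG4 at 2.86, 2.97 and 2.57 FPKM against 2.78, 2.96 and 2.97 FPKM. This order rests on the 10418 exon bases annotated for PSMG4, since per base of the principal transcript the control means of PSMG4 and PSMG3 were 36.1 and 35.4 FPKM. PSMG2 stood at 11.3, 11.9 and 12.2 FPKM against 11.1, 11.1 and 11.2 FPKM, so that the groups did not overlap, but its log2 fold change of 0.08 did not pass (adjusted p = 0.145). PSMC3IP stood at 1.74, 2.07 and 1.93 FPKM against 2.27, 2.07 and 2.34 FPKM (log2 fold change −0.21, adjusted p = 0.131).

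A further 4 members were not tested. PSMA2 stood at 0.764, 0.654 and 0.581 FPKM in BrM3-shAKR1B10 against 0.929, 0.709 and 0.637 FPKM in BrM3-shNC, and PSMD9 at 0.709, 0.701 and 0.745 FPKM against 0.708, 0.930 and 0.806 FPKM. PSMA8 and PSMB11 had 0 reads in all 6 libraries. PSMA2, which stood under 1 FPKM, encodes a constitutive subunit of the alpha ring, as do PSMA3, PSMA4, PSMA5 and PSMA7, which had control means of 25.3 to 165 FPKM.

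The low core members had a feature of the annotation in common. In GENCODE 29, all coding bases of PSMA2 (100%), 91.0% of those of PSMA1 and 89.7% of those of PSMA6 lie in exons of another gene, and these 3 had control means of 0.758 to 6.94 FPKM. The 11 other constitutive core members share no coding base and had control means of 25.3 to 165 FPKM, a 6.54-fold range. PSMA6 stood at 1.28, 1.23 and 1.39 FPKM in BrM3-shAKR1B10 against 1.07, 0.991 and 1.47 FPKM in BrM3-shNC, and the 4 pseudogenes named after it held together up to 34.9% as many reads. Similarly, 68.3% of the coding bases of PSMD9 and 47.7% of those of PSMC1, the lowest subunit of the cap, are shared. PSMC1 lies across NRDE2 on the opposite strand, and the 13 pseudogenes named after it held together up to 10.7% as many reads. The treatment of reads with more than 1 gene or place is not given in the sources used here, so the levels of these genes are uncertain and the part of overlap in them was not tested.

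Members fell with and without such overlaps. Of all genes tested, 23.1% were lower and 19.4% higher past the adjusted p, with a median log2 fold change of −0.01. Among the 36 members with reads and no shared coding base, 17 of 36 tested fell and 0 rose, with a median log2 fold change of −0.11. Among the 11 with shared coding bases, 4 of 9 tested fell and 1 rose, with a median of −0.18.

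Genes that work with the proteasome but lie outside the name pattern were read from 5 lists. Their counts stand beside 23.1% of all genes tested that were lower and 19.4% that were higher past the adjusted p, and with so few genes a list nothing particular to a list is read from them. Of 13 partners, 5 fell and 0 rose (median log2 fold change −0.10). UCHL5, a deubiquitinating enzyme of the cap, was the 1 called at the study's thresholds: it stood at 5.79, 6.08 and 5.95 FPKM in BrM3-shAKR1B10 against 9.87, 9.60 and 10.2 FPKM in BrM3-shNC (log2 fold change −0.73 ± 0.04 SE, adjusted p = 5.7e-05). AKIRIN2, which brings proteasomes into the nucleus (−0.31), the core assembly factor POMP (−0.22), ZFAND5 (−0.16) and the cap deubiquitinase USP14 (−0.15, adjusted p = 0.0362) also fell. USP14 passed in 5 of 15 alternatives and lost its call without any 1 library other than BrM3-shAKR1B10 replicate 2 (adjusted p up to 0.104). The ubiquitin receptor ADRM1 and the small lid subunit SEM1 did not pass (adjusted p = 0.319 and 0.395).

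Of 9 shuttle receptors and unfoldase subunits, 6 fell and 0 rose (median −0.13), with UBQLN4 at −0.46 and the unfoldase VCP at −0.17. Of 6 ubiquitin genes and E1 enzymes, 3 fell and 0 rose (median −0.16), namely the ubiquitin gene UBB (−0.25) and the activating enzymes UBA6 (−0.18) and UBA1 (−0.13). UBA6 passed in 6 of 14 alternatives and lost its call without any 1 library other than BrM3-shAKR1B10 replicate 3 (adjusted p up to 0.0742). UBA1 passed in 7 of 15, and lost it without any 1 library other than BrM3-shNC replicate 2 (up to 0.0784). Of 9 transcription factors of proteasome genes and their processing enzymes, 1 fell and 1 rose (median −0.03), in each direction a smaller share than that of all genes (23.1% and 19.4%). NFYA, a subunit of the factor that binds CCAAT, fell from 20.3, 19.6 and 19.9 FPKM in BrM3-shNC to 13.3, 13.1 and 13.3 FPKM in BrM3-shAKR1B10 (log2 fold change −0.59 ± 0.03 SE, adjusted p = 4.1e-05). STAT3 rose (0.23, adjusted p = 0.0085). NFE2L1, the factor that raises proteasome genes when proteolysis fails, stood at 32.5, 35.8 and 34.9 FPKM against 32.0, 30.8 and 32.2 FPKM, without overlap but short of the threshold (log2 fold change 0.12, adjusted p = 0.0728).

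The interferon-gamma axis and class I peptide loading, to which the immunoproteasome belongs, gave 7 lower and 2 higher of 15 genes tested (18 listed, median −0.04), where 23.1% of all genes were lower and 19.4% higher. TAP1, the peptide transporter subunit whose RefSeq start lies 488 bases from that of PSMB9 on the opposite strand, stood at 3.24, 3.14 and 3.61 FPKM in BrM3-shAKR1B10 against 5.22, 5.07 and 5.39 FPKM in BrM3-shNC (log2 fold change −0.64 ± 0.07 SE, adjusted p = 0.00055). NLRC5, the transactivator of class I genes, stood at 0.955, 0.979 and 0.938 FPKM against 1.53, 1.48 and 1.5 FPKM (−0.60, adjusted p = 0.0094). TAP1 and NLRC5 passed the study's thresholds, and TAP2 (−0.45), ERAP2 (−0.41), HLA-C (−0.22) and B2M (−0.20) fell by less. HLA-C passed in 7 of 15 alternatives and lost its call without any 1 library other than replicate 1 of either group (adjusted p up to 0.0737). B2M passed in 10 of 15, and lost it without BrM3-shAKR1B10 replicate 1 or 3 or BrM3-shNC replicate 1 (up to 0.0684).

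The 2 genes of this axis that were higher are a smaller share than that of all genes. STAT2 (0.22, adjusted p = 0.0258) and the peptide-trimming enzyme ERAP1 (0.23, adjusted p = 0.0297) passed, and these calls were not stable: of 14 alternatives STAT2 passed in 8 and ERAP1 in 7. STAT2 lost its call without any 1 library other than replicate 3 of either group (adjusted p up to 0.0749), and ERAP1 without any 1 library other than BrM3-shNC replicate 2 (up to 0.0882). The other 3 genes listed had a mean under 1 FPKM and were not tested. JAK2, a kinase of interferon receptors, stood at 0.523, 0.53 and 0.685 FPKM against 0.265, 0.355 and 0.249 FPKM, higher without overlap. The groups overlapped for IRF1, and 1 gene was lower without overlap. PSMB8 and PSMB9 fell along with their neighbours on chromosome 6, TAP1 and TAP2.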

How the data were processed

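Poly-A RNA of 6 libraries was sequenced as paired ends. Per the paper's methods, the authors cleaned the reads, used HISAT2 2.0.5 for alignment and featureCounts 1.5.0-p3 for counting. The authors deposited FPKM values of 58735 genes with gene lengths. The values include a median-of-ratios scaling between libraries, and all genes match GENCODE 29 in position and strand. Recovered reads were whole for 100% of values (within 0.01 read).

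Genes whose mean reached 1 FPKM were compared on log2(FPKM + 0.1), which understates changes of low genes, with limma 3.58.1 (lmFit, eBayes with trend) in R 4.3.3 and Benjamini-Hochberg adjustment over 13150 genes. Scripts were tested on simulated data with changes larger than that of any member, so this test does not cover the small changes reported for members. Coding and exon overlaps used GENCODE 29, and promoters used RefSeq, with Python 3.11.15. RefSeq entries were matched by symbol, and PSMA7, PSMB1, PSMB6, PSMB7, PSMD4 and PSMG3 were not matched.

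The members and lists were chosen with earlier results of these data known. Values per library are given for members at the ends of each group in level or fold change, PSMB5 to PSMB10, the activators, the inhibitor, PSMC3IP and untested members. PSMC4, NFE2L1 and the partner genes short of the fold threshold are named in addition, after their values were seen. Some list members are counted but not reported here. Same-numbered libraries did not deviate together (correlations −0.0155 to 0.00388). The 15 alternatives are other pseudocounts, filters, scalings, variance models, voom, a replicate block and each library left out.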

Additional observations from a re-analysis of the deposited data

How the results depend on the processing

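AKR1B10 stayed lower, and more members were lower than higher past the adjusted p, in all 15 alternatives. The number of members lower past the adjusted p was 15 to 22 instead of 21, and the knockdown of AKR1B10 ranged from −2.86 to −2.77 on the log2 scale. Of all genes tested in the main fit, 23.1% were lower and 19.4% higher. Their shares in the alternatives are not given here, so the counts of members are not read against them. At the study's thresholds 0 members were called lower in all alternatives but 1: without BrM3-shNC replicate 1 there was 1, PSMC3 at −0.52, a range of 0 to 1 over the libraries left out. The number of members higher past the adjusted p was 1, but 0 with no filter on low values, 0 with a mean FPKM of at least 5 (PSMB10 is below it), 2 with quantile normalization (PSMG2 added) and 0 to 1 with a library left out. With the replicate number as a block, 15 members were lower and 0 higher, and the numbers are not shown to pair the libraries. PSMA4, PSMA7, PSMB2, PSMB8, PSMC2, PSMC3, PSMD2, PSMD3, PSMD4, PSMD11, PSMD14 and PSME2, 12 of the 22 members past the adjusted p, stayed past it in all 15 alternatives. TPM scaling moved the median of all genes to 0.02. Beside the losses given above, calls were lost with no filter on low values by PSMB9, PSMB10, PSMC1, PSMC6, PSMD8 and PSMD13 (adjusted p = 0.0510 to 0.0847), with TPM scaling by PSMD7, PSMD8, PSMD13, PSME3 and PSME4 (0.0558 to 0.272), with quantile normalization by PSMC6, PSMD1, PSMD7, PSMD8, PSMD13 and PSME3 (0.0560 to 0.270), without a trend in eBayes by PSMD8, PSMD13 and PSME3 (0.0563 to 0.101), with voom by PSMB9 (0.0540) and with the block by PSMB9, PSMB10, PSMC1, PSMD8, PSMD13, PSME3 and PSME4 (0.0507 to 0.0737). With voom PSMA3 and PSMA5 passed. The causes were not tested. Depth limits PSMA6, PSMB9, PSMB10 and PSMC3IP, with 79 to 112 reads in their lowest library.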
